A study of Mus musculus with 6 samples.

Results

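Hypoxia and glycolysis genes were examined in obstructed mouse ureters that differed in the genotype label of Col17a1. The group was a list of 35 gene symbols covering glucose and lactate transporters, glycolytic enzymes and the hypoxia-inducible factor (HIF) system with its target genes, and its members were the probes whose gene name was on that list. Of the 35 symbols, 34 were measured, out of 22260 genes tested on the arrays. The remaining symbol, Ero1l, appeared on the arrays under its current symbol Ero1a and is described separately. The 34 genes were represented by 81 probes, of which 76 passed the filter (called well above background by the scanner software on all 3 arrays of a genotype), and the probe that stood for each gene was well above background on all 6 arrays.

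The tested animals were 3 mice labelled Col17a1-KO, 2 male (replicates 1 and 2) and 1 female (replicate 3), and the comparison animals were 3 male mice labelled Col17a1-WT. All 6 were 2 months old, on a C57BL/6N background, and all had undergone unilateral ureteral obstruction (UUO), a surgical blockage of 1 ureter that dams up urine behind the tie. Ureters were taken 4 days after UUO, so no group lacked the obstruction. The labels do not state which part of Col17a1 was altered or whether the alteration was restricted to a cell type. Col17a1 encodes collagen XVII, a transmembrane protein that anchors basal epithelial cells to the basement membrane.

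Cells short of oxygen stabilise the HIF alpha subunits, which pair with a common partner and bind the letters ACGTG or GCGTG in DNA to switch on genes for glucose uptake, glycolysis and vessel growth. In normal oxygen, prolyl hydroxylases mark the alpha subunits for destruction, and the genes for some of these hydroxylases are themselves HIF targets, which closes a feedback loop. Glycolysis splits glucose into pyruvate, which is either converted to lactate and exported or burned in mitochondria, and pyruvate dehydrogenase kinases close the mitochondrial route.

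RefSeq promoter windows (GRCm38.p6), running from 250 bases before to 50 bases after a gene's start, were found for 32 of the 35 genes counted with Ero1a. The letters ACGTG, read on either strand, were present in at least 1 window of 24 of these 32 genes (75%), against 27.0% of the 13301 array genes with a window and 21.8% of all 27025 genes with a window. The letters GCGTG were present for 21 of the 32 (65.6%), against 50% of the array genes with a window. A match is only a match of letters, and many members are known from the literature as HIF targets, so these shares describe the list. The 250 bases before the start are shown for 5 members. These are Egln3, Pdk1 and Ankrd37, the 3 members with the lowest unadjusted p, and the main glucose transporter gene Slc2a1. The last is Ldha, whose brightest probe hardly differed between genotypes. Capitals mark ACGTG and GCGTG on either strand (on the other strand they read CACGT and CACGC), and CACGTG holds ACGTG on both strands at once. The stretches lie at chr12:54203875-54204124 on the minus strand for Egln3, chr2:71872974-71873223 on the plus strand for Pdk1, chr8:45999851-46000100 on the minus strand for Ankrd37, chr4:119108495-119108744 on the plus strand for Slc2a1 and chr7:46845554-46845803 on the plus strand for Ldha.
Egln3: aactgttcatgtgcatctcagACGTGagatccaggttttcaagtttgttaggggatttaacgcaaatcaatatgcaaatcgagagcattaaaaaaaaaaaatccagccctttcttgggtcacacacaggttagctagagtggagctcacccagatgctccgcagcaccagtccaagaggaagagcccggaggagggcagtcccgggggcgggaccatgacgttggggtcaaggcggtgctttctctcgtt
Pdk1: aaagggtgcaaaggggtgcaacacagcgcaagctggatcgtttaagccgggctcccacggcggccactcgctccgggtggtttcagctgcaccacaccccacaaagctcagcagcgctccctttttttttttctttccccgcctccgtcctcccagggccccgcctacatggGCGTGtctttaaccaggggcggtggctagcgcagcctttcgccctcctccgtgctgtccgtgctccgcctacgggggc
Ankrd37: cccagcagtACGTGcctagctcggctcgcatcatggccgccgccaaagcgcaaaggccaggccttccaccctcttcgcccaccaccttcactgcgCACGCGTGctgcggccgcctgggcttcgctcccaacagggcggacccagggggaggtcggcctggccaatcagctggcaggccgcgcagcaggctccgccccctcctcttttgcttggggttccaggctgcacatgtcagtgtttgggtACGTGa
Slc2a1: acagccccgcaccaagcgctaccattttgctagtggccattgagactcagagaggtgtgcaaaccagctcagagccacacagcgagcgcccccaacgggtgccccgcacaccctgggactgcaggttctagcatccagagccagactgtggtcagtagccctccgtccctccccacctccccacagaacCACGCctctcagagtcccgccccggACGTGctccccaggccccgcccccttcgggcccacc
Ldha: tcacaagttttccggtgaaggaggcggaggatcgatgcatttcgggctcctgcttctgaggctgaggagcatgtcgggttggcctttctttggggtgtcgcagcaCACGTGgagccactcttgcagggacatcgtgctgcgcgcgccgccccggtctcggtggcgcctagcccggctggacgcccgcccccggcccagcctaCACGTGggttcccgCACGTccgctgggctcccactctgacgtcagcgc
ACGTG occurred 5 times before the start of Ldha and once each before Egln3 and Slc2a1, while the Pdk1 stretch held GCGTG once and no ACGTG.

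The 75th percentile of signal ranged from 143.7 to 164.9 over the arrays, the probes called well above background numbered 35482 to 36567, and saturation was not flagged for any spot. Values below are log2 signals minus the 75th percentile of their array, and differences are KO-labelled minus WT on that log2 scale. Col17a1 itself was higher in the ureters labelled KO, at 0.50, 0.53 and 0.40 on the 3 KO-labelled arrays, against -2.33, -0.80 and -0.39 in WT. A second Col17a1 probe was also higher, at -1.76, -1.80 and -1.94 in KO-labelled ureters, against -3.34, -2.76 and -2.70 in WT. Both probes can lie outside the altered part of the gene, so they cannot check the genotype in either direction. The values are not those of a lost transcript, and all directions given here depend on the label. Of the 6 basal urothelium markers, 4 were also higher in KO-labelled ureters and 2 lower. Krt5 differed by 0.91 and Trp63 by -0.32, both without overlap. The part of cell content in the Col17a1 values was not tested. Across all 22260 genes no gene passed an adjusted p of 0.05 (limma with Benjamini-Hochberg adjustment, lowest adjusted p = 0.229), and 2017 had an unadjusted p under 0.05. An exact two-sided permutation test of 3 arrays against 3 cannot give a p below 0.1. Markers of several cell types differed in 1 direction, none past the threshold. All 8 superficial urothelium markers, all 5 mesothelium markers and all 8 smooth muscle markers had positive differences (medians 0.89, 0.82 and 0.66). The mesothelium list shares Upk3b (1.04) with the superficial urothelium list, so the 2 are not independent. Its differences ran from 0.01 for Wt1 to 1.48 for Msln. All 5 erythroid markers that were measured also had positive differences (median 0.29). All 8 macrophage markers and all 6 measured kidney markers had negative ones (medians -0.56 and -0.83). Averaged per array, the mesothelium and macrophage lists did not overlap between genotypes. The kidney tubule and podocyte markers that were measured (6 of 10) averaged 1.74 above their own means on WT replicate 2 and between -0.48 and -0.22 on the other 5 arrays. In such bulk samples, fewer cells of a type and less RNA per cell cannot be told apart.

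Most hypoxia and glycolysis genes had small differences between genotypes. At the probe that stood for each gene, only for Egln3 and Pdk1 did the arrays not overlap. None of the 34 passed the adjusted threshold, as none of the 22260 genes did (0%), and adjusted p-values ranged from 0.454 for Egln3 to 0.999 for Pfkp. The median difference was 0.04 log2 units over the 34 members and -9e-04 over all genes, with 23 members higher and 11 lower in KO-labelled ureters (67.6% higher, against 49.8% of all genes). An unadjusted p under 0.05 was reached by 2 members, Egln3 and Pdk1, both higher in KO-labelled ureters (5.88%, against 4.35% of all genes higher and 9.06% in either direction). The same 2 were the members whose arrays did not overlap between genotypes (5.88%, against 7.28% of all genes higher, 8.13% lower and 15.4% in either direction). The first share is near the background and the second below it. Only Egln3 differed by 2-fold or more, as did 1.66% of all genes.

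**Figure D1:**
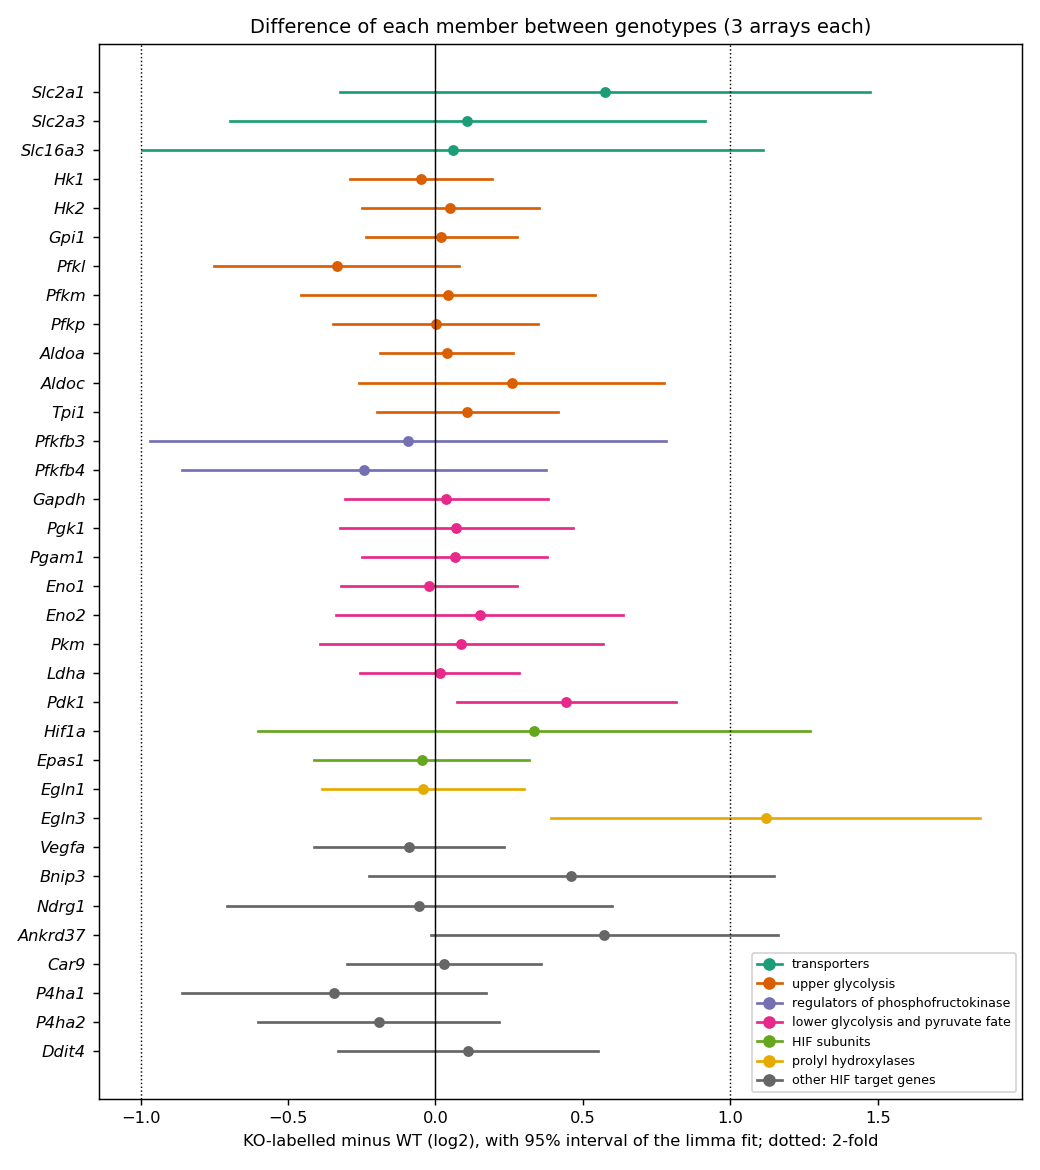
The difference of each of the 34 members (points, log2, KO-labelled minus WT, 3 arrays each) is plotted with its 95% interval, coloured by role, with dotted lines at a 2-fold difference. Intervals of glycolytic enzymes are short and span 0, Egln3 lies farthest from 0 at 1.12, and the intervals of Egln3 and Pdk1 do not reach 0.

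Glucose and lactate transporters varied more between the WT animals than between genotypes. Slc2a1, which encodes the glucose transporter GLUT1, had values of 2.95, 3.15 and 3.43 on the KO-labelled arrays, against 1.75, 3.12 and 2.94 on the WT arrays. WT replicate 1 lay far below the other 5 arrays, and the other WT values fell within or just below the KO-labelled range. The difference was 0.57 ± 0.37 (standard error; limma, adjusted p = 0.683), and without WT replicate 1 it was 0.15. Slc2a3, which encodes GLUT3, had values from -0.44 to 0.33 in KO-labelled ureters, against -0.77 to 0.37 in WT ureters, a difference of 0.11. Slc16a3, which encodes the lactate exporter MCT4, had values from 3.41 to 4.19 in KO-labelled ureters, against 2.81 to 4.44 in WT ureters, a difference of 0.06. For both genes WT replicate 1 was the lowest array and WT replicate 2 the highest, and their differences without WT replicate 1 were -0.18 and -0.35. The 95% interval for Slc16a3, from -0.996 to 1.11, leaves a 2-fold difference in its range.

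Of the 9 genes for enzymes that split glucose into triose phosphates, 7 had a 95% interval inside a 1.5-fold change either way, the exceptions being Pfkl and Aldoc, which are given below. Of these 9 genes 7 were higher and 2 lower in KO-labelled ureters, none passed the threshold, and their median difference was 0.04. Hk1 and Hk2, the hexokinases that trap glucose in the cell, differed by -0.05 and 0.05, with 95% intervals from -0.29 to 0.19 and from -0.25 to 0.35. Gpi1, glucose phosphate isomerase, differed by 0.02, and Aldoa, the ubiquitous aldolase, by 0.04. Aldoa varied little between animals and averaged 8.19 ± 0.06 in KO-labelled ureters and 8.16 ± 0.03 in WT ureters (SD, n = 3 each). Tpi1, triose phosphate isomerase, differed by 0.11, and Aldoc, the aldolase best known from brain, by 0.26 with WT replicate 1 again lowest at -1.08. At 1 of the 4 Tpi1 probes, which differed by 0.25, all KO-labelled arrays lay above all WT arrays.

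The 3 phosphofructokinase genes, which encode subunits of the committing enzyme of glycolysis, had differences of both signs. Pfkl, the liver-type subunit, had values of 1.57, 1.74 and 2.10 on the KO-labelled arrays, against 1.95, 2.18 and 2.28 on the WT arrays. The groups overlapped through KO replicate 3 and WT replicate 1, and the difference of -0.33 ± 0.17 did not pass (limma, adjusted p = 0.61). A second Pfkl probe differed by -0.08. Pfkm, the muscle-type subunit, differed by 0.04, with WT replicate 1 highest at 2.24 and WT replicate 2 lowest at 1.51. Smooth muscle markers were ordered likewise among the WT animals, averaging 0.15 above their means on WT replicate 1 and -0.81 on WT replicate 2. Among KO replicates 1, 2 and 3 the order differed, with marker averages of 0.64, 0.41 and -0.20 and Pfkm values of 1.96, 1.77 and 1.81. Adipocyte, skeletal muscle and fibroblast markers had their highest averages on WT replicate 1, at 0.37, 0.26 and 0.21. The part of any of these lists in the Pfkm values was not tested. Pfkp, the platelet-type subunit, had equal means of 2.94 ± 0.17 in KO-labelled ureters and 2.93 ± 0.17 in WT ureters (SD, n = 3 each).

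Pfkfb3 and Pfkfb4 encode the enzymes that set the level of a sugar bisphosphate activating phosphofructokinase. Pfkfb4 had values of 1.82, 1.41 and 2.30 on the KO-labelled arrays, against 1.82, 2.35 and 2.08 on the WT arrays. KO replicate 2 was the lowest array and the rest overlapped, for a difference of -0.24 ± 0.25 (limma, adjusted p = 0.804). Pfkfb3 had values of 4.41, 4.06 and 3.55 in KO-labelled ureters, against 4.79, 3.92 and 3.58 in WT ureters. WT replicate 1 was the highest array and KO replicate 3 the lowest, and the difference was -0.09, with a 95% interval from -0.97 to 0.78.

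The enzymes from glyceraldehyde phosphate to lactate also gave close values in both genotypes. Gapdh differed by 0.04, Pgk1 by 0.07, Pgam1 by 0.06, Eno1 by -0.02 and Ldha, which converts pyruvate to lactate, by 0.01. Gapdh, a gene often taken as a loading control, averaged 7.54 ± 0.13 in KO-labelled ureters and 7.50 ± 0.20 in WT ureters (SD, n = 3 each), and Ldha averaged 7.51 ± 0.08 in KO-labelled ureters and 7.49 ± 0.12 in WT ureters. At the other Ldha probe, which differed by 0.17, all KO-labelled arrays lay above all WT arrays. All 6 Gapdh probes gave differences between 0.04 and 0.23, and all 4 Eno1 probes between -0.10 and -0.02. Gapdh and Eno1 have near-identical copies elsewhere in the genome, so part of their signal may come from those. Pkm, pyruvate kinase, differed by 0.09 at its brightest probe and by up to 0.31 at its 3 other probes, and Eno2, the enolase known from neurons, differed by 0.15. Over the 16 glycolytic enzyme genes including Ldha, 13 had a 95% interval inside a 1.5-fold change either way (81.2%, against 53.7% of all genes) and all 16 inside a 2-fold change (against 82.7%). Their median SD between replicates was 0.12 in KO-labelled ureters and 0.17 in WT ureters, against 0.16 in KO-labelled and 0.20 in WT ureters over all genes. Several of these enzyme genes gave high signals, and the comparison with all genes was not matched for signal. The part of signal level in these shares and SDs was not tested.

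Pdk1 had the largest difference among the 8 genes of lower glycolysis and pyruvate fate. It encodes a kinase that inactivates pyruvate dehydrogenase and so keeps pyruvate out of mitochondria. Its brightest probe, on chromosome 2 at 71739926 to 71739985 (mm9), had values of 2.33, 2.25 and 1.96 on the KO-labelled arrays, against 1.95, 1.61 and 1.65 on the WT arrays. The genotypes did not overlap, but KO replicate 3, the female, at 1.96 nearly met WT replicate 1 at 1.95. The difference was 0.44 ± 0.15 (limma, unadjusted p = 0.0258, adjusted p = 0.492), which is 1.36-fold. All 5 Pdk1 probes were higher in KO-labelled ureters, by 0.16 to 0.53, and 2 of the 5 did not overlap between genotypes. Superficial urothelium and smooth muscle markers averaged 0.91 and 0.64 above their own means on KO replicate 1, where Pdk1 was highest, and -0.98 and -0.81 on WT replicate 2, where it was lowest. Mesothelium markers averaged 0.62 and macrophage markers -0.37 on KO replicate 1, against -0.60 and 0.47 on WT replicate 2. The part of these lists in the Pdk1 difference was not tested.

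**Figure D2:**
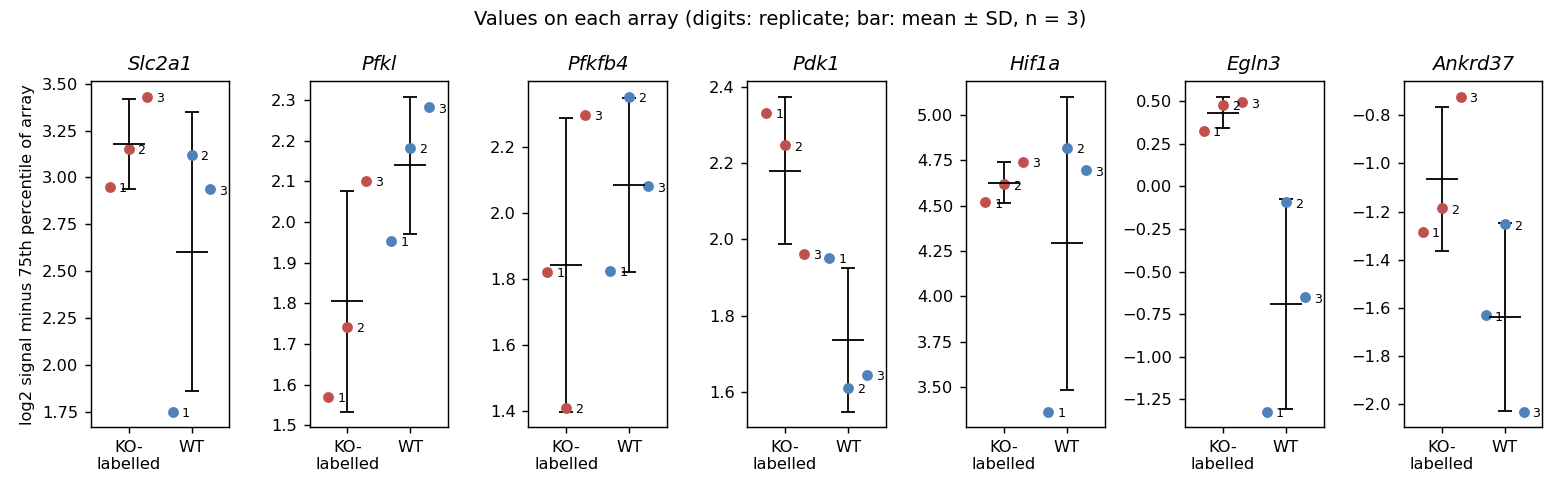
Log2 values on each array (minus the array's 75th percentile) are shown for 7 members, KO-labelled left and WT right, with replicate digits and mean ± SD (n = 3). Slc2a1, Hif1a and Egln3 have their lowest value on WT replicate 1, and the genotypes do not overlap for Pdk1 and Egln3.

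The genes for the HIF alpha subunits showed no difference that held over the animals. Hif1a had values of 4.52, 4.62 and 4.74 on the KO-labelled arrays, against 3.36, 4.82 and 4.70 on the WT arrays. WT replicates 2 and 3 lay within or above the KO-labelled range, and WT replicate 1 alone was low. The difference of 0.33 ± 0.39 (limma, adjusted p = 0.824) was -0.13 without WT replicate 1, and the 2 other Hif1a probes differed by -0.39 and -0.03. Epas1, which encodes the HIF-2 alpha subunit prominent in endothelium, averaged 5.19 ± 0.11 in KO-labelled ureters and 5.24 ± 0.24 in WT ureters (SD, n = 3 each). Its 95% interval ran from -0.41 to 0.32. HIF alpha subunits are controlled mainly as proteins, which arrays do not measure.

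Egln3 had the largest difference of the 34 members and Egln1 one of the smaller ones. Both encode prolyl hydroxylases that mark HIF alpha subunits for destruction. The Egln3 probe, on chromosome 12 at 55280953 to 55281012 (mm9), had values of 0.33, 0.48 and 0.49 on the KO-labelled arrays, against -1.32, -0.09 and -0.65 on the WT arrays. All KO-labelled values lay above all WT values, and the spread was much wider in WT (SD 0.62) than in KO-labelled ureters (SD 0.09). The difference was 1.12 ± 0.30 with a 95% interval from 0.39 to 1.85, which is 2.17-fold. By unadjusted p (0.00900) Egln3 ranked 431st among the 22260 genes, and it did not pass after adjustment (limma, adjusted p = 0.454). Without WT replicate 1 the difference was 0.80. Smooth muscle markers averaged 0.64, 0.41 and -0.20 above their own means on KO replicates 1, 2 and 3, against 0.15, -0.81 and -0.20 in WT. Superficial urothelium markers averaged 0.91, 0.49 and -0.07 in KO-labelled ureters, against 0.11, -0.98 and -0.46 in WT. Basal urothelium markers averaged 0.16, 0.40 and 0.19 in KO-labelled ureters, against -0.63, -0.20 and 0.09 in WT. That list was mixed, with 4 markers higher and 2 lower in KO-labelled ureters, and Trp63 was lower by -0.32 without overlap. Mesothelium markers averaged 0.62, 0.25 and 0.27 in KO-labelled ureters, against -0.04, -0.60 and -0.50 in WT, and macrophage markers -0.37, -0.61 and 0.04 in KO-labelled ureters, against 0.19, 0.47 and 0.28 in WT. The part of any of these in the Egln3 difference was not tested. Egln1, which encodes the main oxygen sensor of the family, averaged 2.84 ± 0.17 in KO-labelled ureters and 2.88 ± 0.17 in WT ureters (SD, n = 3 each).

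The remaining HIF target genes split evenly, 4 higher and 4 lower in KO-labelled ureters. Ankrd37, an ankyrin repeat gene induced by HIF, had values of -1.28, -1.19 and -0.72 on the KO-labelled arrays, against -1.63, -1.25 and -2.03 on the WT arrays. KO replicate 1 and WT replicate 2 were the arrays that overlapped, and the difference was 0.57 ± 0.24 (limma, adjusted p = 0.555). Bnip3, a receptor for the removal of mitochondria, had values of 4.71, 4.87 and 4.12 in KO-labelled ureters, against 4.60, 3.91 and 3.81 in WT ureters. KO replicate 3 lay below WT replicate 1, and the difference of 0.46 was 0.71 without WT replicate 1. Ddit4, an inhibitor of growth signalling through mTORC1, differed by 0.11 and Car9, a carbonic anhydrase at the cell surface, by 0.03.

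Vegfa, the vascular growth factor, differed by -0.09 at its brightest probe, where it averaged 2.73 ± 0.16 in KO-labelled ureters and 2.82 ± 0.14 in WT ureters (SD, n = 3 each). Its 3 other probes differed by -0.33, -0.20 and -0.22, and at 2 of these 4 probes all KO-labelled arrays lay below all WT arrays. P4ha1 and P4ha2 encode the catalytic subunits of the enzyme that hydroxylates collagen prolines. P4ha1 had values of 0.21, 0.09 and 0.46 in KO-labelled ureters, against 0.30, 1.02 and 0.48 in WT ureters, a difference of -0.34, and P4ha2 differed by -0.19. Ndrg1, a stress-response gene, differed by -0.05 with WT replicate 2 highest at 4.30. That array had the highest average of kidney markers, though not of Aqp2 among them. Macrophage markers also had their highest average there, at 0.47. Neutrophil markers, a mixed list, averaged 0.41 there and 0.50 on KO replicate 3. WT replicate 2 was the highest array for 13 members, P4ha1, P4ha2, Slc16a3 and Slc2a3 among them, and for 24.4% of all genes. The part of kidney, macrophage or neutrophil transcripts in these values was not tested. Ero1a, the endoplasmic reticulum oxidase listed as Ero1l, averaged 2.16 ± 0.15 in KO-labelled ureters and 2.04 ± 0.36 in WT ureters (SD, n = 3 each), a difference of 0.13 (limma, adjusted p = 0.878).

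**Figure D3:**
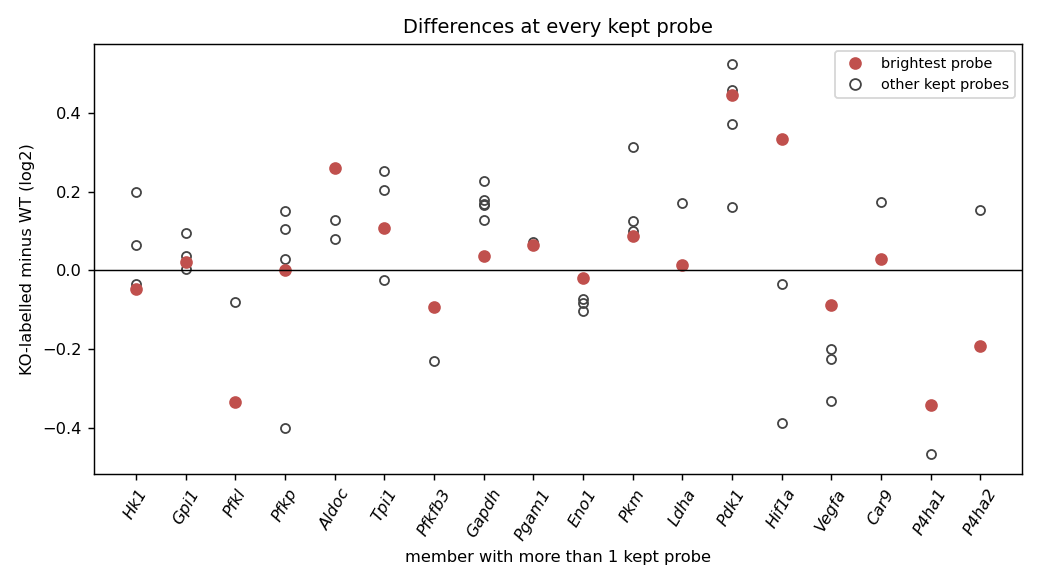
KO-labelled minus WT differences (log2) are plotted for every probe used of the 18 members with more than 1 such probe, the brightest probe filled. All probes of Pdk1 and Gapdh lie above 0 and all probes of Vegfa and Eno1 below 0, whereas probes of Hif1a lie on both sides.

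Probes of the same gene disagreed in direction for 5 of the 18 members with more than 1 usable probe: Hk1, Pfkp, Tpi1, Hif1a and P4ha2. In Pfkp, 1 probe differed by -0.40 while the other 4 lay between 0.00 and 0.15.

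The array most often lowest and the array most often highest for the members were both WT animals. WT replicate 1 was the lowest of the 6 arrays for 17 of the 34 members, against 29.6% of all genes, and WT replicate 2 was the highest for 13, against 24.4% of all genes. KO replicate 3, the female, was the highest for 8, against 9.93% of all genes. WT replicate 3 was the lowest for 2, against 8.77% of all genes, and the highest for 3, against 7.45%. The median deviation of the members from their own means was 0.10 on KO replicate 3, -0.16 on WT replicate 1 and 0.11 on WT replicate 2. Members highest on WT replicate 1 were Hk1, Pfkm, Pfkfb3, Eno2 and Egln1. As list averages, neutrophil, basal urothelium and erythroid markers were also lowest on WT replicate 1, at -0.77, -0.63 and -0.36. Endothelium markers averaged -0.17 there and on KO replicate 1. The neutrophil and basal urothelium lists held markers that went the other way, among them Elane and Trp63, which were highest on WT replicate 1. Neutrophil markers averaged 0.41 on WT replicate 2 and 0.50 on KO replicate 3. The part of these lists in this order was not tested.

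**Figure D4:**
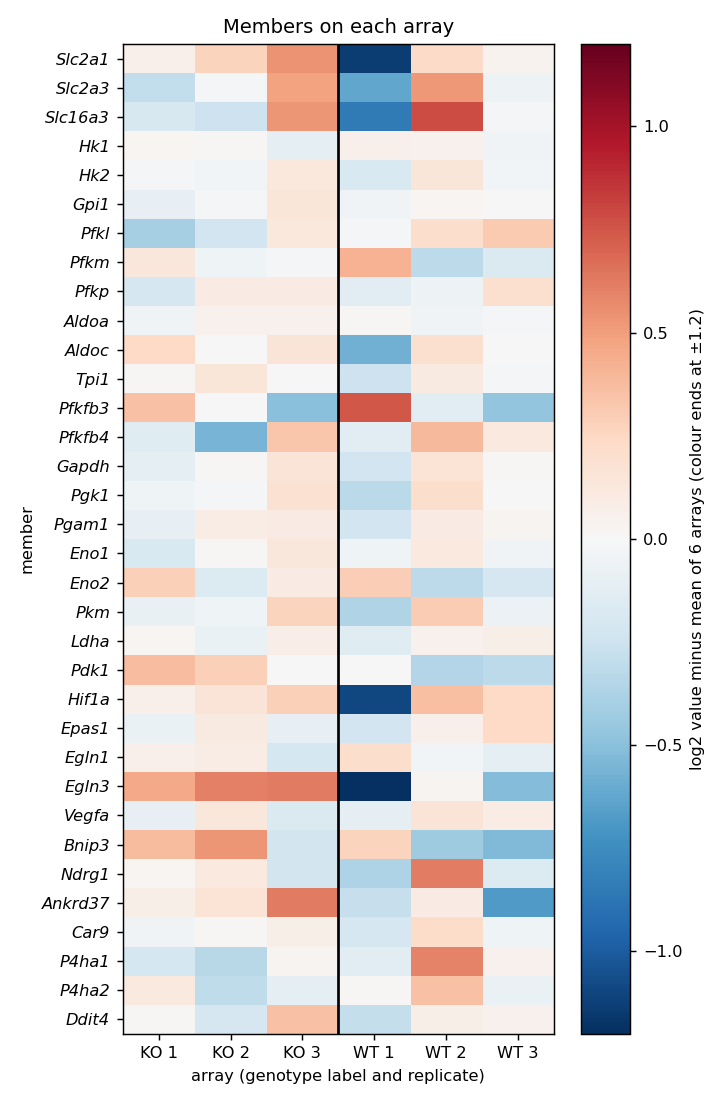
Each row is a member and each column an array, KO-labelled left of the line and WT right of it, coloured by the log2 value minus the member's mean over the 6 arrays. The WT 1 column is the lowest for 17 members, with Slc2a1, Hif1a and Egln3 darkest, and the WT 2 column is the highest for 13.

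Further genes of the pathway, 64 by list and 58 measured, also gave no call. None passed the threshold, 36 were higher and 22 lower in KO-labelled ureters (62.1% higher, against 49.8% of all genes), and the median difference was 0.055. An unadjusted p under 0.05 was reached by 2, both higher (3.45%, against 4.35% of all genes). These were Kdm3a, a histone demethylase induced by HIF, at 0.30 ± 0.12, and Fbp2, a muscle fructose bisphosphatase, at 0.97 ± 0.39. Kdm3a had values of 1.25, 1.40 and 1.42 in KO-labelled ureters, against 1.22, 1.04 and 0.91 in WT ureters, without overlap. Arrays did not overlap between genotypes for 3 of the 58, Kdm3a and the transferrin receptor gene Tfrc higher and Eno3 lower, against 15.4% of all genes. Tfrc is named after its values were seen. Next in order of p were Pfkfb2, a relative of Pfkfb3, at 0.33, Plod1, a collagen lysyl hydroxylase, at -0.30, and Eno3, the muscle enolase, at -0.30.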

How the data were processed

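Ureter RNA of 6 mice was labelled with Cy3 and hybridised to 1-colour Agilent arrays, 1 array per animal, per the labels' protocols. Per the file headers, the deposited intensity values are the processed signals of Agilent Feature Extraction 12.0.3.1, with background subtraction and spatial detrending inside an array, and the probe positions are those of mm9. The authors' normalisation between arrays was not given in the sources used here. All arrays shared 1 slide and scan time.

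From the 59305 non-control spots, outlier spots were set to missing, spots of a probe were averaged on the log2 scale (56605 probes), and each array was centred on its 75th percentile. A probe was kept if it was called well above background on all 3 arrays of either genotype, and a gene was its brightest probe, which gave 22260 genes. Array values are single hybridisations, so the number of arrays limits the precision. KO-labelled and WT were compared with lmFit and eBayes of limma 3.58.1 (R 4.3.3), adjusted by Benjamini-Hochberg over all genes. The procedure was tested on simulated data. Of the 34 members, 32 had a probe accession that matched the same symbol in RefSeq (GRCm38.p6).

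The members and lists were chosen with earlier results of these data known. All members are named, and those given on every array by rule have an unadjusted p under 0.05 or the largest difference in their role group; Slc2a3, Slc16a3, Pfkfb3, Bnip3, P4ha1 and Kdm3a were given more fully after their values were seen. The 5 other pathway genes named have the lowest p of their list. Alternatives covered background correction, normalisation, filters, probe choice, variance model, array weights, a replicate block and leaving out arrays.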

Additional observations from a re-analysis of the deposited data

How the results depend on the processing

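No alternative setting brought a member past the threshold except array weights, where 498 genes and 2 members passed: Pdk1 at 0.59 (limma, adjusted p = 0.0462) and Egln3 at 1.01 (limma, adjusted p = 0.047). The estimation of these weights stopped before it converged, and they differed 30.2-fold between arrays. Leaving out 1 array gave 0 to 1 genes (1 without KO replicate 2) and 0 members past the threshold. The genotypes did not overlap for 2 to 7 members when 1 array was left out, for 12 when WT replicate 2 and KO replicate 3 were left out together (40.9% of all genes), and for 1 with quantile normalization and with centring on the median of the detected probes. The share of all genes without overlap was likewise higher with fewer arrays, up to 33.6% with 1 left out. The median member difference of 0.04 ran from -0.04 without WT replicate 1 to 0.13 without WT replicate 2, so its sign depended on single arrays. These shifts were smaller than the SD between replicates of 0.105, which is itself larger than the difference.

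Egln3 and Pdk1 were higher in KO-labelled ureters in all 16 alternatives, Egln3 by 0.79 (normexp background) to 1.42 (without WT replicate 2) and Pdk1 by 0.37 to 0.59. The sign of 11 others held in all 16, but leaving out 1 array moved their size: Slc2a1 from 0.15 to 0.83, Ankrd37 from 0.38 to 0.77 (0.31 with normexp background), Bnip3 from 0.31 to 0.71, Aldoa from 0.021 to 0.070, Aldoc from 0.034 to 0.42, Tpi1 from 0.0095 to 0.19, Eno2 from 0.028 to 0.33, Pfkl from -0.48 to -0.22, Pfkfb4 from -0.47 to -0.026, P4ha1 from -0.49 to -0.13 and P4ha2 from -0.30 to -0.065. Within these ranges, the values of Aldoc and Tpi1 nearest 0 came without WT replicate 1 and that of Pfkfb4 without KO replicate 2. Those of P4ha1 and P4ha2 came without WT replicate 2. Other settings brought P4ha2 nearer 0, at -0.0035 with array weights and -0.020 averaging its probes. Over all 16 alternatives the values nearest 0 were 0.010 for Aldoa and 0.014 for Eno2. Deviations of same-numbered arrays from their group means correlated at 0.531, -0.149 and -0.03 across genes, against -0.451 to 0.461 for the other pairs. Deviations within a group of 3 are bound to each other, so these values cannot decide whether replicate numbers paired the animals. With the replicate number as a block, 1 gene and 0 members passed.

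The other members turned sign in at least 1 alternative. With array weights Slc2a3 was -0.065, Slc16a3 -0.13, Hk1 0.032, Gpi1 -0.027, Pfkp -0.22, Pfkfb3 0.52, Gapdh -0.052, Pgk1 -0.018, Pgam1 -0.043, Ldha -0.059, Hif1a -0.085, Egln1 0.12, Ndrg1 0.10 and Ddit4 -0.035. Without WT replicate 2 and KO replicate 3, Hk1 was 0.0098, Gpi1 -0.030, Pfkm -0.082, Pfkp -0.078, Pfkfb3 0.046, Epas1 0.011, Egln1 0.028, Vegfa 0.030 and Ndrg1 0.34. Averaging the probes of a gene, Hk1 was 0.045, Pfkp -0.023 and Hif1a -0.029, and with normexp background Pfkp was -0.0035. Leaving out each array in turn gave ranges of -0.18 to 0.40 for Slc2a3, -0.35 to 0.46 for Slc16a3, -0.028 to 0.14 for Hk2, -0.046 to 0.075 for Gpi1, -0.10 to 0.26 for Pfkm, -0.068 to 0.10 for Pfkp, -0.35 to 0.25 for Pfkfb3, -0.071 to 0.13 for Gapdh, -0.073 to 0.19 for Pgk1, -0.033 to 0.13 for Pgam1, -0.094 to 0.064 for Eno1, -0.071 to 0.26 for Pkm, -0.054 to 0.058 for Ldha, -0.13 to 0.60 for Hif1a, -0.18 to 0.061 for Epas1, -0.11 to 0.054 for Egln1, -0.25 to 0.24 for Ndrg1, -0.068 to 0.14 for Car9 and -0.038 to 0.24 for Ddit4. The cause of these turns was not tested.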
